A study of Sus scrofa with 23 samples.

Results

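Cytokine, chemokine and cytokine receptor genes were described in articular cartilage of pigs with and without osteochondrosis, a disorder of growing joints in which endochondral ossification is disturbed. Members were taken by gene symbol: every probe set with exactly 1 platform symbol beginning IL, CCL, CXCL, CCR, CXCR, CSF, TNFSF or TNFRSF followed by a digit, with TNF, LIF, IFNG and AMCF-II added and TNFRSF12A left out. The rule found 82 of the 24123 probe sets of the Affymetrix Porcine Genome Array, for 70 of 6765 gene symbols, and used no measured value. They comprised 25 probe sets of chemokine ligands, 7 of chemokine receptors, 26 of interleukins and other cytokines, 15 of interleukin receptors or binding proteins, 5 of TNF family ligands and 4 of TNF family receptors.

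Total RNA came from the joint surface of animals of a cross between the Duroc and Pietrain breeds, at the medial part of the humeral condyle in the elbow or at the medial femoral condyle in the knee. The arrays fell into 4 groups, with 8 arrays of humerus and 4 of femur from affected joints and 6 of humerus and 5 of femur from non-affected joints. The sources used here give neither the age of the pigs nor a treatment, and the status in the labels is the disease status only. Arrays 5 and 6 of the affected humerus, and arrays 1 and 2 of the non-affected femur, differed from each other by less than any other pair of 1 group. Each pair was averaged and counted as 1 sample, written 5+6 and 1+2 below, which left 7 and 6 humeral samples and 4 and 4 femoral samples. Since the labels do not tie the arrays of a group to different animals, p-values refer to the spread among these samples, which may be technical in part. Values are log2 expression with a lower limit of 4, and 1 log2 unit is a 2-fold difference.

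Cytokines are secreted messengers that cells use to direct inflammation, growth and tissue breakdown, and chemokines are the small cytokines that draw cells along a gradient through G-protein-coupled receptors. In joints, interleukin-1 and TNF make chondrocytes secrete matrix-degrading proteases, while CXCL12 and its receptor CXCR4 take part in the growth plate and in the vascular invasion that precedes ossification. Healthy articular cartilage holds chondrocytes and no blood vessels, while the growth cartilage beneath it is vascularised in young animals.

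Chondrocyte markers were high in every sample, but marker lists of other cells reached the same level in some humeral samples. All 6 measured chondrocyte markers of a list of 16 (COL2A1, ACAN, SOX9, COMP, COL11A1 and HAPLN1) had group means of 8.41 or more in every group. Their log2 summed level ran from 14.66 to 15.48 over all samples. Markers of other cells were present too and varied widely. The log2 summed neutrophil list ran from 8.78 to 14.99 in affected and 7.92 to 15.52 in non-affected humerus. The osteoblast list ran from 12.31 to 15.19 and 13.58 to 15.0 in affected and non-affected humerus. In the femur neither list passed 12.78. In humerus non-affected 2 the neutrophil list read 15.52 and the chondrocyte list 15.1. In humerus affected 1 the osteoblast list read 15.19 and the chondrocyte list 15.05. Further lists are given beside the results. The 2 sites also differed in the bacterial bioB and bioC probe sets, which read RNA added in the laboratory and not pig RNA. All 10 of these were higher in every femoral than in every humeral sample, by 1.41 to 1.60, so site and array processing cannot be told apart. Humerus non-affected 5 lay at 29.0 on the first principal component (43.5% of the variance), among the femoral samples at 26.9 to 58.4 and away from the other humeral samples at -53.2 to -0.80. Values without it are given where it moved a count or a difference most.

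**Figure D1:**
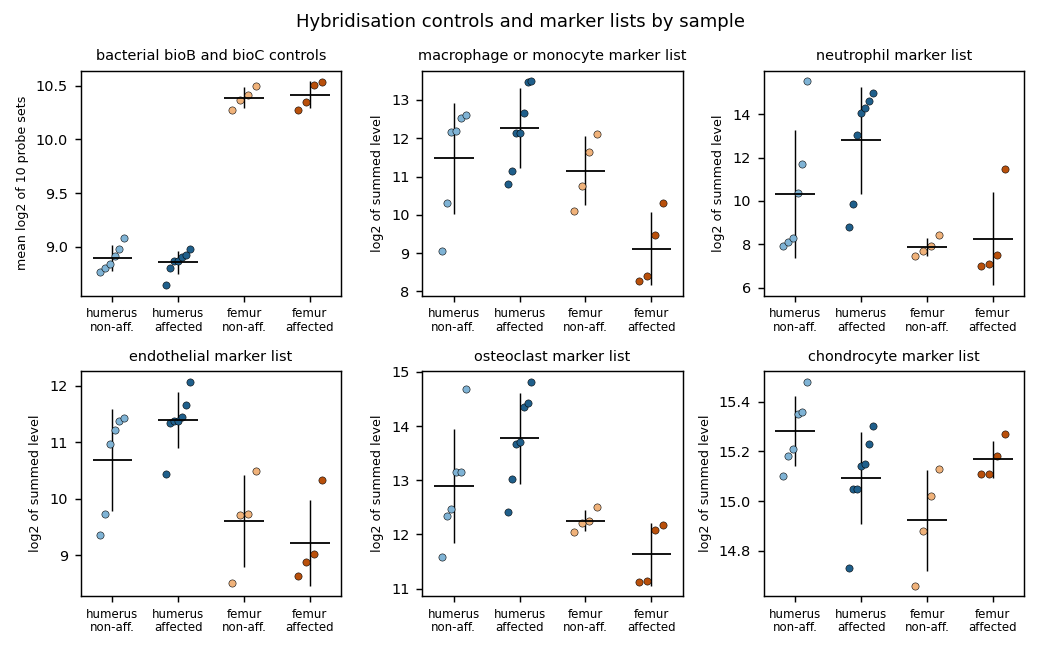
Each panel plots 1 value per sample for the 4 groups of site by status, as the mean log2 of 10 bacterial control probe sets or as the log2 of the summed level of a cell marker list; points are samples, horizontal lines are means and vertical lines 1 SD. The control probe sets are at 8.64 to 9.08 in the humerus and 10.27 to 10.53 in the femur, and the macrophage list is lowest in the affected femur, at 8.27 to 10.3.

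Many of these genes were dim in cartilage. Of the 82 probe sets, 30 (36.6%) had a mean under the level required for testing (5.30), compared with 30% of all probe sets, the share that sets the level. This left 52 probe sets for 44 genes, and 26 genes had no tested probe set. The untested genes included the inflammatory cytokines TNF, IL1A and CXCL8, the T-cell cytokines IL2, IL4, IL5, IL13 and IL17A, the colony-stimulating factors CSF2 and CSF3, and the receptors CCR2, CCR3, CCR9, CXCR6, IL2RA, IL2RG and IL7R. Just under the level lay CCL8, at a mean of 5.21, and just above it IL21, at 5.30. Of the tested probe sets, 13 had a mean under the level at 1 of the 2 sites. The markers of T or NK cells were dim too, and a smaller share of them was tested, 3 of 9 measured ones. Their log2 summed level stayed between 8.64 and 9.05 in all samples.

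The lower limit was reached more often in the femur. At least 1 sample was at the floor (within 0.05 of the lower limit of 4) for 3 of 82 probe sets in the affected humerus, 8 in the non-affected humerus, 14 in the affected femur and 10 in the non-affected femur. As a share of the member values this was 0.697%, 2.85%, 4.88% and 4.57%, beside 1.89%, 2.33%, 4.23% and 4.38% of the values of all probe sets. The affected humerus thus had fewer member values at the floor than the array as a whole, and the other groups had about the same share. IL4, a cytokine of type 2 helper T cells, was at the floor in 9 of 21 samples, the most of any member: 2 of the affected humerus, 5 of the non-affected humerus and 2 of the non-affected femur. No probe set had all samples of a group at the floor. Among tested genes, CXCL12, CXCL14, CCL2, CCL19, CCL24 and LIF reached it in 1 or 2 femoral samples and in no humeral sample.

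Between the joints, cytokine genes differed about as often as other genes, and more of the chemokine genes were lower than higher in the femur. Femur was compared with humerus in limma with status in the model. Of the 52 tested member probe sets, 27 (24 genes) differed at an adjusted p under 0.05, or 51.9%, and the background was 51.8% of all probe sets tested. Of the 27, 7 were higher in the femur (background 17.6%) and 20 were lower (background 34.2%). The median difference over members was -0.43, beside -0.12 over all probe sets. Of the 13 probe sets with 1 site mean under the test level, 9 were among the 27. These 9 passed the level only through the site where they were high, so they add no weight to the count. The split depended on scaling: with quantile normalisation 9 members were higher and 16 lower, and with arrays centred on their median 11 and 15, while over all probe sets the share of calls that were higher went from 34.0% to 54.6% and 56.6%. Over all probe sets the median difference moved from -0.12 to 0.03 and 0.05, and over members from -0.43 to -0.30 and -0.26. Without humerus non-affected 5, 30 of 51 tested member probe sets differed, 8 higher and 22 lower. Over all probe sets it was then 8900 of 16799, 3115 higher and 5785 lower.

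**Figure D2:**
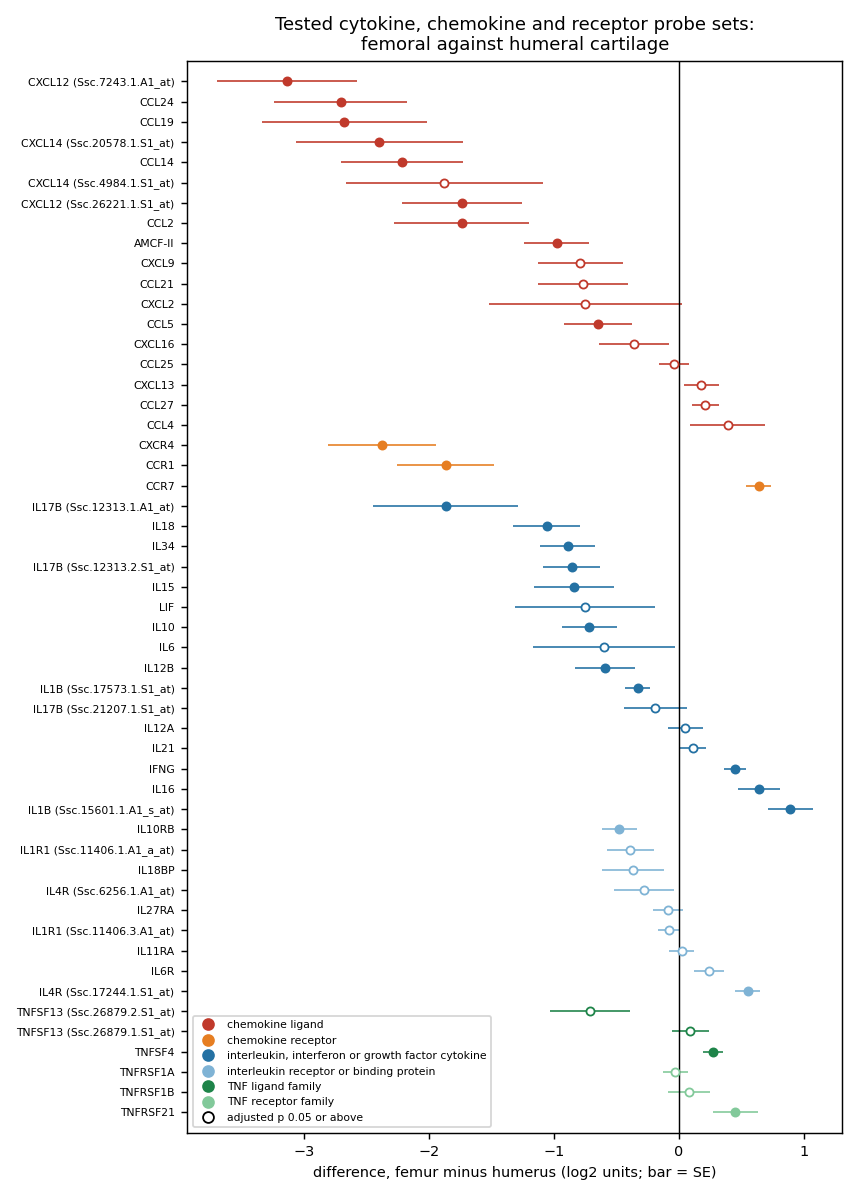
The plot gives the femur minus humerus difference of each of the 52 tested member probe sets in log2 units, with its standard error, ordered within roles; filled and open points separate those past an adjusted p of 0.05 from the rest. Called chemokine ligands all lie below 0, from CXCL12 at -3.14 to CCL5 at -0.65, and the chemokine receptor CCR7 lies above 0 at 0.64.

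Chemokine ligands made up the largest group of lower values. Of 18 tested probe sets, 9 (8 genes) were called lower in the femur (background 34.2%) and 0 higher (background 17.6%), with a median difference of -0.89. Of the 18, 5 had 1 site mean under the test level, and 3 of these were among the 9. They were CXCL12 at its first probe set, CCL24 and CCL5, with femoral means of 5.22, 4.86 and 4.94. These 3 passed the test level only through the humerus, where they were high, so they add no weight to the count. Without humerus non-affected 5, 11 of the 18 were called lower and 1 higher, with a median of -0.99. Over all probe sets 5785 of 16799 were then lower and 3115 higher. CXCL12, which holds and guides blood-forming and endothelial cells, had the largest difference. CXCL12 is read by a pair of probe sets, and at the first its level ran from 6.45 through a median of 9.69 to 10.1 in the affected humerus and from 5.54 through 7.74 to 9.46 in the non-affected humerus. In the affected femur the samples read 4.72, 4.0, 5.22 and 5.14, and in the non-affected femur 4.0, 5.13, 7.03 and 6.53. Most humeral samples lay above every femoral one, and the exceptions were humerus non-affected 1 (6.82), non-affected 5 (5.54) and affected 7 (6.45), which lay below the highest femoral sample. The difference was -3.14 ± 0.56 (SE, n = 8 and 13; adjusted p = 0.000129). The second CXCL12 probe set gave -1.74 ± 0.48 (SE; adjusted p = 0.00521).

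The same 3 humeral samples were the lowest for several other ligands. CCL24, which attracts eosinophils, ran from 5.09 to 9.41 in the affected and from 4.19 to 8.34 in the non-affected humerus. Its femoral samples read 4.0, 4.85, 4.91 and 4.61 when affected and 4.45, 4.39, 5.92 and 5.72 when not. The groups overlapped only through humerus affected 7 (5.09) and non-affected 5 (4.19), and the difference was -2.71 ± 0.53 (SE; adjusted p = 0.000296). CCL19, a ligand of CCR7 that guides T cells and dendritic cells, ran from 4.49 to 10.51 in the humerus with a median of 8.64. In the femur it lay between 4.0 and 5.01 in affected samples and read 5.42, 6.17, 6.49 and 6.66 in non-affected ones. That difference was -2.68 ± 0.66 (SE; adjusted p = 0.00211).

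CXCL14, a chemokine of epithelia and connective tissue, was lower by the first of its 2 probe sets, at 8.37 ± 1.70 (SD, n = 13) in the humerus and 5.98 ± 1.34 (SD, n = 8) in the femur, a difference of -2.40 ± 0.67 (SE; adjusted p = 0.00542). The second read -1.88 with an adjusted p of 0.0521. CCL14, a ligand of CCR1, ran from 5.22 to 9.05 in the humerus and from 4.19 to 7.26 in the femur, a difference of -2.22 (adjusted p = 0.000907). CCL2, the main attractant of monocytes, was at 7.76 ± 1.24 and 6.04 ± 1.37 (SD), a difference of -1.74 (adjusted p = 0.0108). AMCF-II, a porcine neutrophil attractant, was at 8.63 ± 0.54 and 7.64 ± 0.76 (SD) at its tested probe set, a difference of -0.98 (adjusted p = 0.00377). Its other probe sets were too dim to test. Their means in humerus and femur were 4.78 and 4.58 at one, and 5.37 and 5.03 at the other. At both of these the highest sample was femoral. CCL5, a ligand made by T cells and macrophages that was named after its values were seen, passed narrowly at -0.65 (adjusted p = 0.0497). CCL25, a ligand of gut and thymus, gave -0.04 ± 0.12 (SE), and CCL4 and CXCL2 gave 0.39 ± 0.30 and -0.75 ± 0.77.

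Of the 7 chemokine receptor probe sets, 3 were tested, and all 3 were called. CCR1, at a mean of 5.08 in the femur, and CCR7, at 5.16 in the humerus, passed the test level of 5.30 only through the site where they were high, so the count of called receptors carries no weight. CXCR4, the receptor of CXCL12, ran from 6.53 through a median of 8.30 to 9.51 in the affected and from 5.91 through 7.49 to 9.39 in the non-affected humerus. Affected femoral samples read 5.63, 4.35, 4.22 and 5.45, and non-affected ones 5.23, 5.61, 6.77 and 5.84. The overlap came from the same humeral samples as for CXCL12, namely non-affected 1 (5.91), non-affected 5 (6.18) and affected 7 (6.53), and the difference was -2.38 ± 0.43 (SE; adjusted p = 0.000164). CCR1, a receptor of monocytes and neutrophils, differed by -1.87 ± 0.39 (SE; adjusted p = 0.000559), with femoral samples between 4.71 and 5.58 and humeral ones between 5.13 and 8.69.

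CCR7, the receptor of CCL19 and CCL21 on lymphocytes and dendritic cells, went the other way. It read 5.78, 5.87, 5.60 and 5.35 in the affected femur and 5.74, 6.20, 6.30 and 5.63 in the non-affected femur, against 4.94 to 5.29 in all 13 humeral samples. CCR7 was the only tested member whose sites did not overlap, 1 of 52 in the higher direction (background 1.73%) and 0 in the lower (background 2.78%). The count in the higher direction was near its background. As CCR7 passed the test level only through the femur, where it was high, its lack of overlap adds no weight. The difference was small at 0.64 ± 0.10 (SE; adjusted p = 2.44e-05), near the lower end of the array's range. Its ligand CCL19 was lower in the femur, and its ligand CCL21 read -0.77 (adjusted p = 0.0774).

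**Figure D3:**
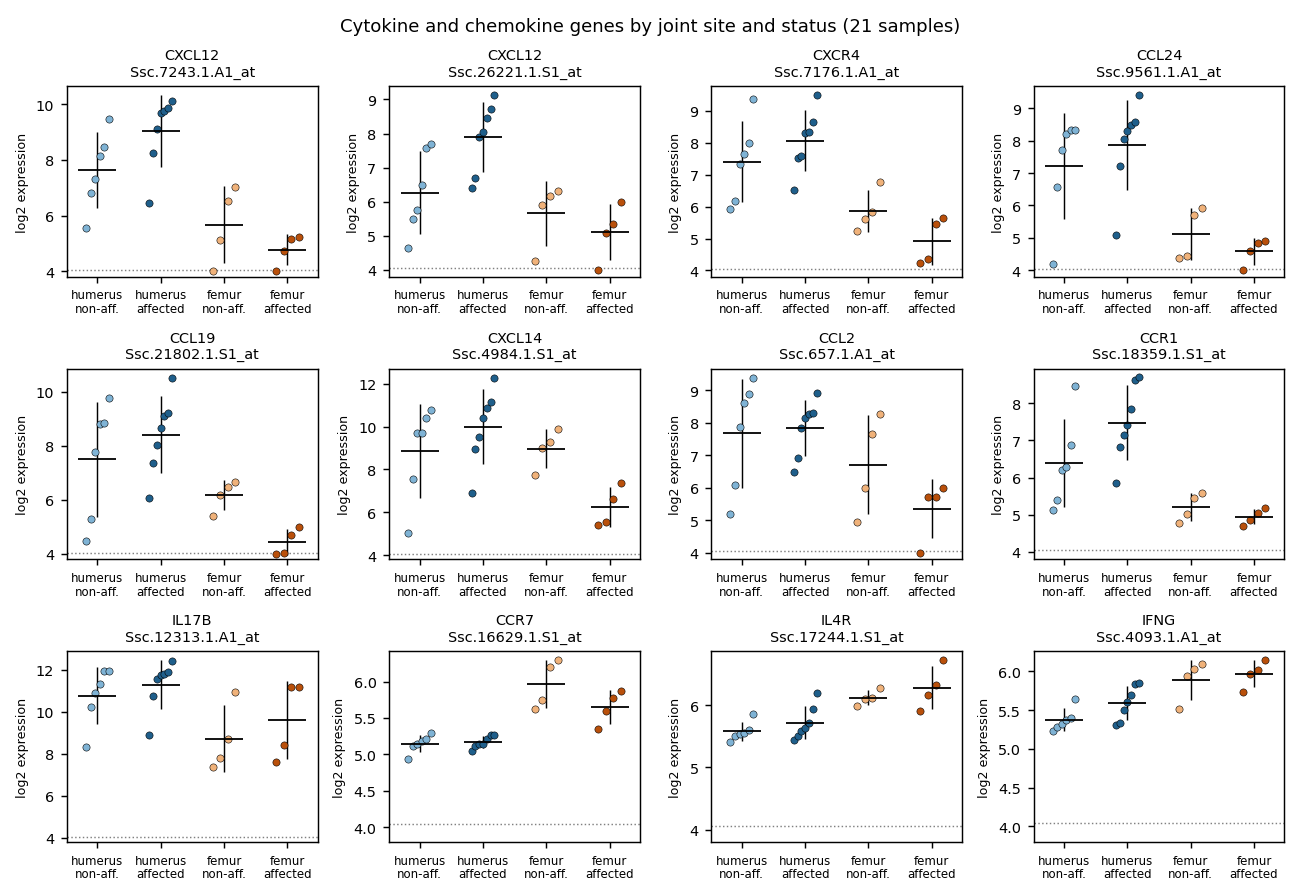
Each panel plots the log2 expression of 1 member probe set in every sample of the 4 groups, with the group mean (horizontal line), 1 SD (vertical line) and the floor (dotted line). CXCL12, CXCR4 and CCL24 sit mostly above the femoral samples in the humerus, with a few low humeral samples, while CCR7 is at 5.35 to 6.30 in the femur and 4.94 to 5.29 in the humerus.

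Markers of other cells differed between the sites too. Over all probe sets tested, 34.2% were called lower in the femur and 17.6% higher. In the same comparison 7 of 9 tested macrophage or monocyte markers were called lower in the femur and 1 higher (median -1.95), 7 of 7 neutrophil markers lower (median -2.99), 6 of 7 endothelial markers lower and 1 higher (median -2.20), and 4 of 5 osteoclast markers lower and 1 higher (median -0.88). Of 7 osteoblast markers 5 were lower and 1 higher (median -1.28), and of 6 chondrocyte markers 2 were lower and 1 higher (median -0.10). Skeletal muscle markers were higher for 3 of 4 (median 1.13) and adipocyte markers for 2 of 3, with 1 lower (median 0.48). Erythroid markers were lower for 1 of 4 (median -0.69), the 1 tested marker of B or plasma cells was lower (-2.08), and limma called 0 of 3 T or NK cell markers (median -0.03), 0 of them at an unadjusted p under 0.05. With arrays scaled by quantiles or centred on their median, an alternative chosen after the data were seen, 7 of 7 neutrophil, 6 of 9 macrophage, 6 of 7 endothelial and 4 of 5 osteoclast markers were called lower under either. The log2 summed level of the macrophage list was 10.8 to 13.49 and 9.06 to 12.6 in the affected and non-affected humerus, and 8.27 to 10.3 and 10.1 to 12.1 in the affected and non-affected femur. The endothelial list was 10.43 to 12.07 and 9.36 to 11.43 in the humerus, and 8.63 to 10.32 and 8.50 to 10.48 in the femur. The neutrophil markers S100A8, S100A12, PR39, ELANE and LTF had means under the test level of 5.30 in both femoral groups. So did endothelial CLDN5 and osteoclast ATP6V0D2, and adipocyte ADIPOQ was under it in both humeral groups. These markers passed the level only through the site where they were high, so they add no weight to the counts. VWF, JCHAIN and MMP9 were under it in the affected femur. No list marker had all samples of a group at the floor. The part of these cells in the chemokine differences was not tested. In whole tissue, fewer cells of a type and less RNA per cell cannot be told apart.

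Interleukins and other cytokines were called at 11 of 16 probe sets (9 genes), or 68.8% (background 51.8%). Of the 11, 8 were lower in the femur (background 34.2%) and 3 higher (background 17.6%). Of the 16, 6 had 1 site mean under the test level, and 4 of these were among the 11. The 4 were IL15, IL10 and IL12B, with femoral means of 5.12, 5.07 and 5.11, and the first IL1B probe set, with a humeral mean of 5.22. All 4 passed the test level only through the site where they were high, so they add no weight to the count. IL17B, an interleukin-17 family ligand, has 3 probe sets, and at the first it ran from 8.92 through 11.74 to 12.43 in the affected and from 8.34 through 11.11 to 11.94 in the non-affected humerus, with femoral samples at 11.21, 7.60, 11.19 and 8.42 when affected and 7.80, 8.73, 10.96 and 7.37 when not. Of the femoral samples, 3 read 10.96 or more and the other 5 read 8.73 or less, and both statuses were in each set. The difference was -1.87 ± 0.58 (SE; adjusted p = 0.0111), and the other two IL17B probe sets gave -0.86 (adjusted p = 0.00448) and -0.19 (adjusted p = 0.552).

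IL18, an inflammasome product of macrophages and chondrocytes, was at 7.98 ± 0.70 (SD, n = 13) in the humerus and 6.94 ± 0.53 (SD, n = 8) in the femur, a difference of -1.06 (adjusted p = 0.00296). Also lower, and named after their values were seen, were IL34 (-0.89), which shares the receptor of macrophage colony-stimulating factor, IL15 (-0.84), which sustains NK and memory T cells, the anti-inflammatory IL10 (-0.72), and IL12B (-0.59). IL16, a CD4 ligand, was higher at 8.85 ± 0.52 against 8.20 ± 0.31 (SD), a difference of 0.64 ± 0.17 (SE; adjusted p = 0.00336). IFNG, the type II interferon, was at 5.52 to 6.15 in the femur and 5.23 to 5.85 in the humerus. The difference was small at 0.45 ± 0.09 (SE, adjusted p = 0.000615 by limma), near the test level of 5.30 and the lower end of the array's range.

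The 2 probe sets of IL1B, a principal inflammatory cytokine of joints, were called in opposite directions. The first was higher in the femur by 0.89 ± 0.18 (SE; adjusted p = 0.000374), with affected femoral samples at 6.37, 5.84, 5.20 and 6.71, non-affected ones at 6.61, 6.22, 6.03 and 5.97, and humeral samples at 4.79 to 5.99. The second gave -0.33 ± 0.10 (SE; adjusted p = 0.00889), so no direction was assigned to IL1B. These values depended on scaling. With quantile normalisation and with arrays centred on their median the second gave -0.18 and -0.16, and the first 1.04 and 1.06. By the array maker's naming, the first is of a kind that can read more than 1 transcript.

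Receptors other than those of chemokines mostly differed little. Of 9 tested interleukin receptor or binding protein probe sets, 2 were called, or 22.2% (background 51.8%). IL4R, the receptor chain of IL4 and IL13, was higher at the first of its 2 probe sets by 0.55 ± 0.10 (SE; adjusted p = 0.000223), with the femur at 5.91 to 6.73 and the humerus at 5.41 to 6.19, but the second read -0.28 (adjusted p = 0.351). IL10RB, named after its values were seen, was lower at -0.48 (adjusted p = 0.00655). IL11RA, a receptor needed for bone growth, gave 0.02 ± 0.10 (SE), and the 2 probe sets of IL1R1, the signalling receptor of interleukin-1, gave -0.39 ± 0.19 and -0.08 ± 0.09.

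In the TNF family, 1 of 3 tested ligand probe sets and 1 of 3 tested receptor probe sets were called, both higher in the femur (background 17.6%). TNFSF4, the ligand of the T-cell receptor OX40, was at 6.64 to 7.01 in the femur and 6.20 to 6.80 in the humerus, a difference of 0.27 ± 0.08 (SE; adjusted p = 0.00652). TNFRSF21, a death-domain receptor, was at 10.09 ± 0.53 (SD, n = 8) and 9.62 ± 0.43 (SD, n = 13), a difference of 0.45 ± 0.18 (SE; adjusted p = 0.0455). That call was lost under 15 of 30 alternatives, with adjusted p up to 0.115. The TNF receptors TNFRSF1A and TNFRSF1B gave -0.03 ± 0.10 and 0.08 ± 0.17 (SE).

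Within the femur, 1 cytokine gene fell in affected cartilage, TNFSF13. TNFSF13, also called APRIL, is a ligand that keeps B and plasma cells alive and is made largely by myeloid cells. It has a pair of probe sets. At the first the affected femoral samples read 6.33, 5.22, 4.94 and 5.43. The non-affected ones read 7.55, 7.30, 7.68 and 7.35, so the groups did not overlap. In the humerus the affected samples ran from 6.74 through a median of 7.27 to 7.90 and the non-affected ones from 5.82 through 7.17 to 7.33, so that the affected femur lay below all humeral samples other than humerus non-affected 5 (5.82), which lay below the highest affected femoral sample.

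The femoral difference was -1.99 ± 0.31 (SE, n = 4 and 4; adjusted p = 0.00275 by limma over the 4 groups), 1 of 52 tested members called, or 1.92%, against a background of 1.14% of all probe sets (0.75% in the lower direction). With femoral arrays fitted alone, the difference was the same and the adjusted p was 0.0783, which ends the call. Leaving out any 1 sample kept it, with adjusted p of 0.000305 to 0.0183. The second TNFSF13 probe set read 6.15, 5.16, 5.52 and 5.57 in affected and 5.96, 6.08, 6.34 and 6.08 in non-affected femur, a difference of -0.51 (adjusted p = 0.192).

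**Figure D4:**
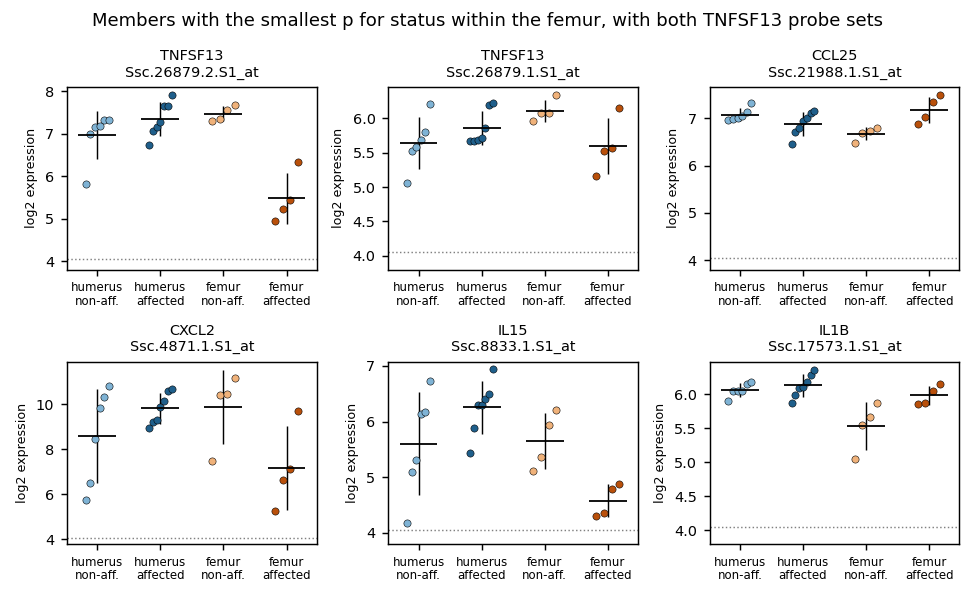
Each panel plots the log2 expression of 1 member probe set in every sample of the 4 groups, with the group mean (horizontal line), 1 SD (vertical line) and the floor (dotted line). At the first TNFSF13 probe set the affected femur is at 4.94 to 6.33 and the non-affected femur at 7.30 to 7.68; at the second the femoral groups overlap.

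The next smallest p-values in the femur did not pass. CCL25 read 7.49, 7.34, 6.89 and 7.03 in affected and 6.70, 6.73, 6.48 and 6.80 in non-affected samples, with no overlap, a difference of 0.51 ± 0.15 (SE; adjusted p = 0.094). CXCL2, a neutrophil attractant, read 9.68, 5.27, 6.63 and 7.11 in affected and 7.46, 10.41, 11.17 and 10.44 in non-affected femur. Affected sample 1 was the highest of its group and non-affected sample 1+2 the lowest of its, and the groups overlapped. The difference was -2.70 ± 1.03 (SE; adjusted p = 0.162). IL15 read 4.87, 4.30, 4.36 and 4.79 against 5.36, 5.11, 6.21 and 5.94, with no overlap, a difference of -1.08 (adjusted p = 0.162). IL1B at its second probe set read 5.86, 6.04, 6.15 and 5.87 against 5.66, 5.04, 5.87 and 5.54, a difference of 0.45 (adjusted p = 0.112). Without femur non-affected 3 it was 0.29.

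Over members, 18 of 52 differences in the femur were above 0 (background 51.1%), with a median of -0.26 beside 0.01 over all probe sets. In all, 14 of 52 members had an unadjusted p under 0.05 in the femur, 4 higher and 10 lower, where the backgrounds were 20.4%, 10.4% and 9.95%. Femoral groups did not overlap for 1 member in the higher direction (background 3.01%) and 6 in the lower (background 5.07%). Those lower were TNFSF13, CCL5, CCL19, CXCL14, IL15 and IL18, of which CCL5, CCL19, CXCL14 and IL18 were named after their values were seen. CXCL14 at its second probe set read 6.63, 5.39, 5.53 and 7.35 in affected and 7.72, 9.27, 9.88 and 9.02 in non-affected femur, a difference of -2.75 (adjusted p = 0.171). Macrophage markers had a median difference of -1.87 in the femur, with 8 of 9 below 0, 0 called by limma and 7 at an unadjusted p under 0.05. Endothelial markers had a median of -0.77, with 0 called and 0 at that unadjusted p. Chondrocyte markers were above 0 for 6 of 6 (median 0.49, 2 at that unadjusted p), neutrophil markers for 5 of 7 (median 0.20) and osteoblast markers for 4 of 7 (median 0.40), and in these limma called 0, with 0 neutrophil and 0 osteoblast markers at that unadjusted p. The part of these cells in the TNFSF13 and chemokine values was not tested.

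Within the humerus, no cytokine gene was called between affected and non-affected cartilage. By limma, 0 of 52 passed (background 0.0%) and 3 had an unadjusted p under 0.05 (background 6.55%), all higher (background 2.32%). These were both CXCL12 probe sets and CCR1. CXCL12 at its second probe set ran from 6.39 through 8.04 to 9.13 in affected and from 4.63 through 6.13 to 7.69 in non-affected samples. The groups overlapped, and the difference was 1.63 ± 0.53 (SE, n = 7 and 6; adjusted p = 0.641). The first CXCL12 probe set gave 1.41 ± 0.63 (SE; adjusted p = 0.759).

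CCR1 ran from 5.84 through 7.40 to 8.69 in affected and from 5.13 through 6.24 to 8.46 in non-affected humerus, a difference of 1.09 ± 0.46 (SE; adjusted p = 0.759). Without humerus non-affected 5 the differences were 1.31 and 0.99 for the second and first CXCL12 probe sets and 0.84 for CCR1, and only that of 1.31 had an unadjusted p under 0.05. IL15 gave 0.65 (adjusted p = 0.767) and TNFRSF21 gave -0.46 (adjusted p = 0.767), and without humerus non-affected 5 they gave 0.37 and -0.32. Over members, 39 of 52 differences were above 0 (background 46.6%), with a median of 0.13 beside -0.01 over all probe sets. For chemokine ligands it was 16 of 18, with a median of 0.34, and 13 of 18, with a median of 0.14, without humerus non-affected 5. Macrophage markers were above 0 for 9 of 9 (median 0.81), neutrophil markers for 7 of 7 (median 1.98) and endothelial markers for 6 of 7 (median 0.90). In these lists limma called 0, and 0, 2 and 0 had an unadjusted p under 0.05. Their part in the humeral values was not tested.

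When the joints were analysed together with site as a covariate, limma called 0 of 52 members between affected and non-affected samples (background 0.0%), and 2 had an unadjusted p under 0.05 (background 7.28%). TNFRSF21 was at 9.60 in the 11 affected and 10.02 in the 10 non-affected samples, a difference of -0.41 ± 0.18 (SE; adjusted p = 0.659). Its groups overlapped at both sites. IL1B at its second probe set gave 0.22 ± 0.10 (SE; adjusted p = 0.667). IL17B and CXCL12, each at its second probe set, and IFNG followed with 0.46, 0.80 and 0.16 (adjusted p = 0.688, 0.723 and 0.715).

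The status difference itself differed between the joints for 1 member. In limma's interaction test, which takes the femoral minus the humeral status difference, TNFSF13 at its first probe set gave -2.37 ± 0.40 (SE; adjusted p = 0.0135). It was 1 of 52 members called, or 1.92%, against a background of 0.268% of all probe sets (0.226% in the lower direction). The call held under the alternatives run, with adjusted p of 0.00167 to 0.0428. Without humerus non-affected 5, the low sample of its group, the difference was -2.14. CCL25 (0.71, adjusted p = 0.110), IL15 (-1.73, adjusted p = 0.129), CXCL2 (-3.91, adjusted p = 0.154) and CXCL14 at its second probe set (-3.90, adjusted p = 0.166) came next and did not pass. With all 23 arrays as separate samples CCL25 passed, at an adjusted p of 0.0462 here and 0.0478 within the femur.

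The signs of the status differences at the 2 sites were counted over members and over the array. The difference was above 0 in the humerus and below 0 in the femur for 28 of 52 members (53.8%), beside 26.5% of all probe sets. It was below 0 in the humerus and above 0 in the femur for 7 (13.5%), beside 31.1%. It was above 0 at both sites for 11 (21.2%), beside 20%, and below 0 at both for 6 (11.5%), beside 22.4%. Without humerus non-affected 5 the first count was 24 of 51 (47.1%). These are counts of probe sets read from the same RNA, without a test, and all but TNFSF13 did not pass in the interaction. Chemokine ligands had a median of 0.34 in the humerus and -0.73 in the femur, and macrophage markers 0.81 and -1.87 in the same 2 comparisons.

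**Figure D5:**
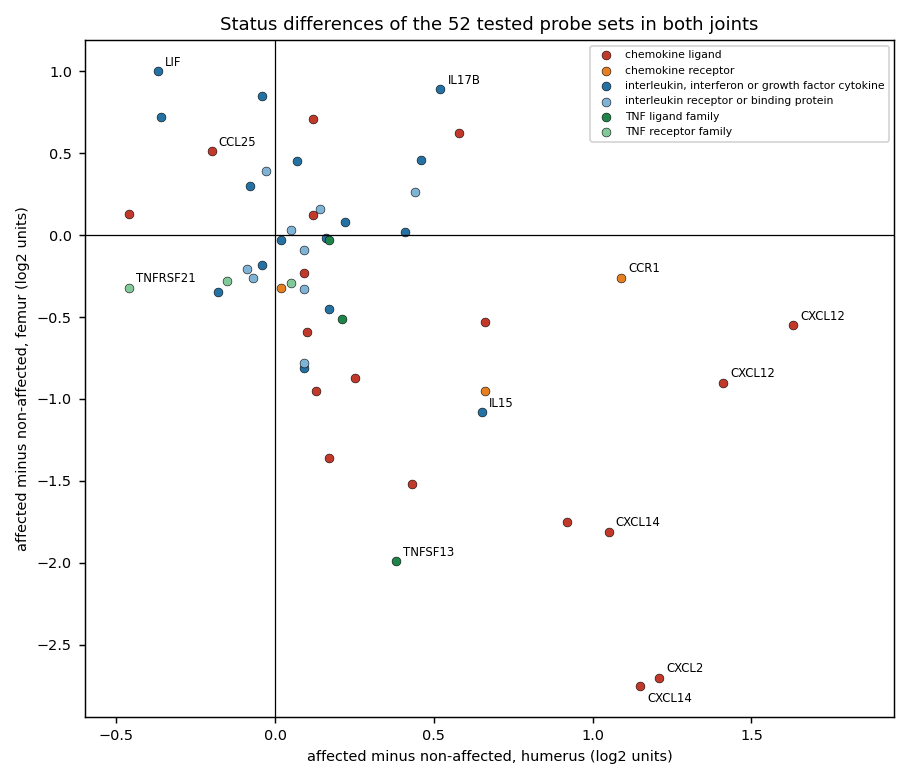
Each point is 1 of the 52 tested member probe sets, placed by its affected minus non-affected difference in the humerus (horizontal axis) and in the femur (vertical axis), both in log2 units and coloured by role. The lower right corner, above 0 in the humerus and below 0 in the femur, holds 28 of the 52, with the second CXCL14 probe set and CXCL2 lowest and TNFSF13 at 0.38 and -1.99.

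Genes downstream of the cytokine receptors were read beside the members. Of 25 genes of the JAK-STAT route, which carries signals from interleukin and interferon receptors, 14 were tested. Between sites JAK2 (-1.25), JAK3 (-0.73) and SOCS6 (-0.64) were lower in the femur and the phosphatase PTPN6 (0.55) was higher, with a list median of 0.05. That split turned with scaling, to 5 higher and 3 lower with quantile normalisation and 6 and 3 with arrays centred on their median. In affected femur STAT2, a mediator of type I interferon signals, fell by 0.80 (adjusted p = 0.0159), and no other JAK-STAT gene was called for status. Of 41 NF-kB and adaptor genes 13 were tested. The kinase MAP3K7 (-0.60), the death-receptor adaptor FADD (-0.58) and the deubiquitinase CYLD (-0.47) were lower in the femur and the MAP3K7 partner TAB1 (0.41) was higher, with a median of -0.06. With either other scaling 2 were higher and 2 lower. For status limma called 0 of these 13, and 0 had an unadjusted p under 0.05 in either joint or over both.

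Of 28 genes that interleukin-1 and TNF are known to induce in cartilage 17 were tested. Between the sites 9 were called lower in the femur (background 34.2%) and 2 higher (background 17.6%), with a median of -0.64 beside -0.12 over all probe sets. With quantile normalisation 7 were lower and 3 higher (median -0.53), and with arrays centred on their median 5 and 3 (median -0.47). On the deposited scale the adhesion molecules VCAM1 (-2.65) and ICAM1 (-0.69), the proteases MMP3 (-2.02), MMP1 (-1.90) and MMP13 (-1.43) and the hyaluronan-binding TNFAIP6 (-1.41) were lower. MMP13 was at 4.96 in the affected and 4.63 in the non-affected femur, and TNFAIP6 at 4.48 and 4.43. Both passed the test level of 5.30 only through the humerus, where they were high, so they add no weight to the count. CHI3L1, a secreted chondrocyte glycoprotein, was higher at 2.94, and NOS2, the inducible nitric oxide synthase, at 0.30. For status, 0 of 17 were called by limma in either joint or over both, and 5 in the femur and 0 in the humerus or over both had an unadjusted p under 0.05. Differences were above 0 for 15 of 17 in the humerus and 6 of 17 in the femur.

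Some members lie side by side in the pig genome. In the RefSeq annotation of assembly Sscrofa11.1, used for gene order only, 9 pairs of members are adjacent protein-coding genes, among them CCL21 with CCL19, CCR1 with CCR3 and CCR3 with CCR2, IL13 with IL4, and IL1B with IL1A. In 7 of these pairs 1 partner or both had no tested probe set. CCL21 and CCL19 were both tested and both read below 0 between the sites, at -0.77 and -2.68. CCL27, a skin chemokine, and its neighbour IL11RA gave 0.21 and 0.02.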

How the data were processed

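The deposited table holds 1 log2 expression value per probe set and array, made by the authors; GCOS 1.1.1 is named in the submitters' processing notes, and no source used here gives the normalisation. Scanner files were not used here. Gene symbols came from the platform annotation (1 symbol for 10099 probe sets); all 70 member symbols matched RefSeq by gene identifier. Precision is limited by the number of arrays.

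Arrays of 1 group whose values differed by an SD under 0.25 were averaged (0.107 and 0.213; the next pair was at 0.340), which left 21 samples from 23 arrays. The 124 controls were left out, then 7200 dim probe sets (mean over samples below the 30th percentile), and 16799 were tested. limma 3.58.1 in R 4.3.3 (lmFit, eBayes, two-sided) was fitted on all of them, with Benjamini-Hochberg adjustment over all and a threshold of 0.05. Status over both sites had site in the model, site had status in it, and within-site and interaction contrasts came from a fit of 4 group means. A status difference is affected minus non-affected, and a site difference femur minus humerus. The steps were tested on simulated data. Tables and plots used Python 3.11.15, pandas 2.3.3 and matplotlib 3.10.9.

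Named members are those called in any comparison (for site, the 12 largest per direction), the 5 smallest p per comparison, and any gene at the floor in most samples (none was). For lists, the brightest probe set of a gene was used. Members, lists and tests were chosen with earlier results of these data known. Alternatives covered the filter, scaling, floor, variance model, array weights, close pairs, samples in the fit and leaving out each sample. The pathway and marker list counts between the sites were also recomputed with both scalings, an alternative added after the data were seen.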

Additional observations from a re-analysis of the deposited data

Results flagged for a closer look

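In groups of 4 to 10 samples, the gap between an extreme sample and its nearest neighbour was set against the range of its group. Of 104 groups examined, 4 had a sample that stood apart, and chance gives about 1 in 20. CCL2 was at 4.01 in femur affected 2, at the floor, and the nearest sample of that group was at 5.71. IL1B at its first probe set was at 5.99 in humerus affected 7, with the nearest at 5.28, and at 5.93 in humerus non-affected 5, with the nearest at 5.33. TNFSF13 at its first probe set was at 5.82 in humerus non-affected 5, with the nearest at 6.99. One difference between the joints passed its own test: the status difference of TNFSF13 was -2.37 in the femur relative to the humerus (limma, adjusted p = 0.0135).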

How the results depend on the processing

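The count of called members for status stayed at 0 within the humerus and over both sites under every alternative run. With 23 arrays as separate samples it was 2 in the femur and 2 in the interaction, beside 621 and 224 of all 16799 probe sets tested. With femoral arrays fitted alone it was 0 in the femur, beside 4 of 16799. Between the sites it was 16 (of 30 tested) with the filter at the 50th percentile and 36 (of 82) with none. Over all probe sets these settings called 6153 of 12000 and 10299 of 23999. A floor threshold of 4.5 gave 18, 22, 34 and 28 probe sets with a sample at the floor, in affected and non-affected humerus and affected and non-affected femur. Leaving out 1 sample gave 23 to 30 between the sites, beside 8130 to 9028 of 16799 over all probe sets. For status it gave 0 to 0 over both sites and within the humerus, and 1 to 1 in the femur and the interaction. Of 1155 alternatives for 39 named results, 1137 kept direction and side of the threshold, 16 lost the call (15 for TNFRSF21 between the sites, 1 for TNFSF13), 2 gained it (CCL25) and 0 reversed. For CXCL2 in the femur the difference was -3.53 without femur affected 1. The causes were not tested. No paired analysis was possible because the labels do not say which animals were sibs and replicate numbers follow accession order only. Dim probe sets limit what these arrays can show for the 26 genes not tested.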

Other observations

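IL6 and LIF, related cytokines that signal through gp130, were singled out after their values were seen. For IL6 a few samples stood far above the rest. For LIF the high samples were less set apart, with 7.40 next to 6.71. IL6 was at 10.05 in humerus affected 5+6 (10.05 on both arrays), 9.33 in humerus non-affected 4 and 8.23 in humerus affected 2, and between 5.06 and 6.17 in the other 18 samples. LIF was at 8.73 in humerus affected 5+6 (8.73 and 8.72 on its arrays), 8.05 in femur affected 3 and 7.40 in humerus non-affected 5, and between 4.0 and 6.71 in the others. Neither gene was called in any comparison by limma. Only humerus affected 5+6 was high for both genes, and the high samples came from both status groups.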
